A study of Mus musculus with 12 samples.

Results

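The 5 genes described here are the clustered metallothionein genes *Mt1*, *Mt2* and *Mt3*, the zinc exporter gene *Slc30a1* and the metal-responsive transcription factor gene *Mtf1*. They were chosen by symbol out of the 43432 genes of the count table, after *Mt1* had stood out between *Mtmr2* KO and WT control sciatic nerves, so that contrast is given below as a description without a test. *Slc30a1* and *Mtf1* were added as genes of the metal response for comparison. All 5 passed the filter on low counts, which kept 17257 genes, and no library held fewer than 387 counts of any of them. A metallothionein gene of the same cluster, *Mt4*, had 0 to 5 counts per library and did not pass.

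The data were RNA-seq read counts from the sciatic nerve of 12 mice, with 1 nerve and 1 library per mouse and 4 mice (3 males and 1 female) in each of 3 groups, all aged 1 month. WT control mice carried *Mtmr2* wt/wt and received no treatment, *Mtmr2* KO mice carried *Mtmr2* -/- and received no treatment, and *Mtmr2* KO niacin mice carried *Mtmr2* -/- and received niacin. The lack of treatment is as the labels give it, whereas the study's text also calls the *Mtmr2* KO mice of the niacin comparison vehicle treated. Niacin was injected i.p. (120 mg/Kg) from postnatal day 10 to day 21 and then by gavage as a slow release formulation up to day 30. The *Mtmr2* KO line was made on a 129/SvPas background and models the demyelinating neuropathy Charcot-Marie-Tooth type 4B1. No group of WT mice given niacin was analysed here, so the action of niacin on these genes without the mutation cannot be told apart from its action in the mutant. Libraries are named by the mouse numbers of the labels, 4497 to 4500 for WT control, 4501 to 4504 for *Mtmr2* KO and 4505 to 4508 for *Mtmr2* KO niacin.

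Metallothioneins are small cysteine-rich proteins that bind zinc and copper in the cytosol and buffer the free metal. When cytosolic zinc rises, the zinc finger protein MTF1 enters the nucleus and binds short metal response elements in the promoters of *Mt1*, *Mt2* and *Slc30a1*, whose product ZnT1 moves zinc out of the cell. *Mt1* and *Mt2* are transcribed in most tissues and are also induced by glucocorticoids and by acute-phase signals, whereas *Mt3* is best known from the brain and *Mt4* from stratified epithelia.

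Some libraries stood apart from their group. Totals ranged from 20763951 to 33191106 counts per library. *Mtmr2* itself, the deleted gene, was at 128 to 161 counts per 1000000 counts of the library (CPM) in WT control and at 66.8 to 73.5 CPM in the niacin group. In *Mtmr2* KO it was at 71.6, 84.7 and 69.5 CPM in replicates 4501, 4502 and 4504 but at 143 CPM, within the WT range, in the library labelled *Mtmr2* KO replicate 4503. Which part of the transcript these counts came from is not given in the table, so counts outside the deleted part cannot be told apart from the intact gene. Whether the genotype label of 4503 is right was not tested. That library is part of every *Mtmr2* KO mean and test below unless it is said to be left out. Replicate 4502 had 6.997% of its counts on mitochondrial genes against 2.09% to 2.47% in the other *Mtmr2* KO libraries and 2.10% to 5.43% in the other groups. The 8 skeletal muscle markers, led by *Myh4*, summed to 3045 and 3119 CPM in niacin replicates 4506 and 4507 and to between 10.5 and 98.9 CPM in the other libraries. The 8 markers of myelinating Schwann cells, the cells that wrap the axons, summed to between 63280 and 121500 CPM, and none of them was at 0. Over all libraries the 7 fibroblast and perineurium markers, led by *Dcn*, summed to 5781 to 9512 CPM, the 6 macrophage markers, led by *Mrc1*, to 307 to 591 CPM and the 5 red blood cell markers, led by *Hbb-bs*, to 189 to 1082 CPM.

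The 3 expressed metallothionein genes lay side by side on the plus strand of mouse chromosome 8 (GRCm38, GENCODE annotation). *Mt3* (ENSMUSG00000031760) was at chr8:94152607-94154146, *Mt2* (ENSMUSG00000031762) at chr8:94172664-94173568 and *Mt1* (ENSMUSG00000031765) at chr8:94179082-94180327. With the unexpressed *Mt4* at its upstream end the cluster covered 43131 bases, with gaps of 13575 bases from *Mt4* to *Mt3*, 18517 bases from *Mt3* to *Mt2* and 5513 bases from *Mt2* to *Mt1*. *Slc30a1* (ENSMUSG00000037434) was at chr1:191906767-191913247 and *Mtf1* (ENSMUSG00000028890) at chr4:124802104-124849800, both on the plus strand. The principal transcripts of *Mt1*, *Mt2* and *Mt3* each had 3 exons and were 549, 511 and 536 bases long.

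Because *Mt1*, *Mt2* and *Mt3* moved together between libraries, their promoters are printed with those of *Slc30a1*, from 250 bases before to 50 bases after the RefSeq start site (GRCm38.p6, plus strand, 5′ to 3′). Capitals mark each match to the core of the metal response element, searched on both strands as TGCACNC or TGCGCNC, and a match on the other strand appears as its reverse complement.
*Mt1*, chr8:94178839-94179138: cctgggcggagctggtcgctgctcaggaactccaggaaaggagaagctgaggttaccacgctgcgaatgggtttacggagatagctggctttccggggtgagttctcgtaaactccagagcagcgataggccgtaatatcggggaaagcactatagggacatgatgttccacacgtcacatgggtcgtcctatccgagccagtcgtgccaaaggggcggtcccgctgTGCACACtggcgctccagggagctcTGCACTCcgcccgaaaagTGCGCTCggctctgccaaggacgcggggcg
*Mt2*, chr8:94172368-94172667: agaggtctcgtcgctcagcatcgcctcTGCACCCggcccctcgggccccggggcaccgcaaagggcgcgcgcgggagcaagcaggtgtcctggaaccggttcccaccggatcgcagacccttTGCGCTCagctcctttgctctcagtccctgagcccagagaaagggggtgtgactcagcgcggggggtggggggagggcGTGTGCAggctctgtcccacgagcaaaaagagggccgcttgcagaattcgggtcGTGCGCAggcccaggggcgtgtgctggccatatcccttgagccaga
*Mt3*, chr8:94152357-94152656: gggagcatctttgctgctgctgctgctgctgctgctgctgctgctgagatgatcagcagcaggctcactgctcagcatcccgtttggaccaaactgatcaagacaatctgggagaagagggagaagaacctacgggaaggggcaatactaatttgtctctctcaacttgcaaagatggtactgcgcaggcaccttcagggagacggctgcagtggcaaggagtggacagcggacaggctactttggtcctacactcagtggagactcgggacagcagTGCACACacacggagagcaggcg
*Slc30a1*, chr1:191906531-191906830: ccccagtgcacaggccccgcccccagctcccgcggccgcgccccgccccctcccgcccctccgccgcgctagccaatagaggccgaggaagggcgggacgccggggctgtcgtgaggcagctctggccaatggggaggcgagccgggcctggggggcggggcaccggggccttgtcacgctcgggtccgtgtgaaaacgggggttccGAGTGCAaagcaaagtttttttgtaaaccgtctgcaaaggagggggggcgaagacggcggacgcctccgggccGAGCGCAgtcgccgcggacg
The *Mt1* window held 3 cores, 1 of them 23 bases before the start site and the others 2 and 20 bases after it, all on the gene strand. The *Mt2* window held 4, on the gene strand 223 and 128 bases before the start site and on the other strand 50 bases before and 4 bases after it. The *Mt3* window held 1, at 27 bases after the start site, and that of *Slc30a1* held 2 on the other strand, 43 bases before and 30 bases after the start. No core was found in the *Mtf1* window, chr4:124802299-124802598, and 1 was found in that of *Mt4*. Of the 32851 RefSeq promoters of the same length, 25.7% held at least 1 core, 7.11% as many as *Slc30a1*, 1.97% as many as *Mt1* and 0.517% as many as *Mt2*. No matches overlapped in the printed windows. The start site of the window lay 7 bases after the start of the principal transcript for *Mt1*, 46 bases before it for *Mt2*, 14 bases after it for *Slc30a1* and at it for *Mt3* and *Mtf1*. A later annotated start of *Mt1* lies outside the window, and the bases from the window up to that start were not searched. The core counts and positions hold for these windows only, and cores of *Mt1* near its later start may be missed.

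**Figure D1:**
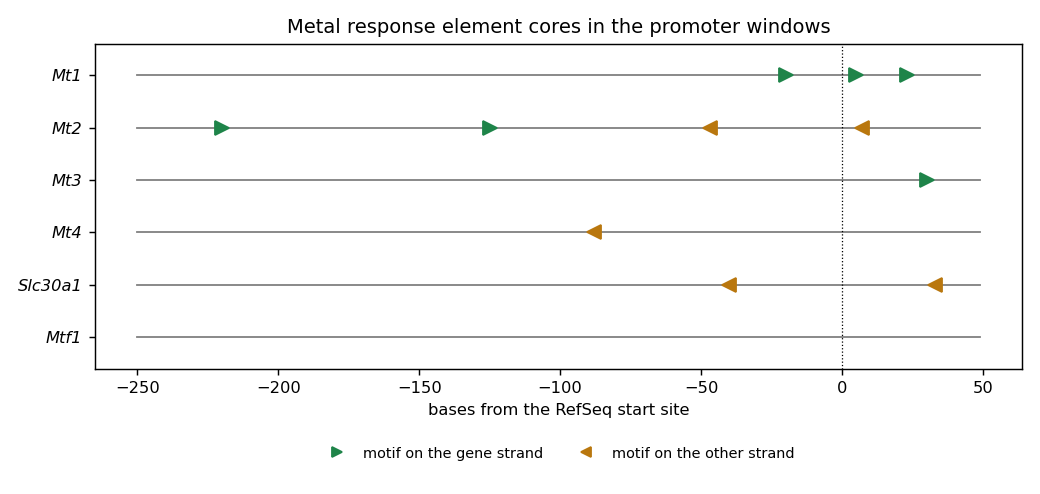
Position of each metal response element core in the promoter windows of 6 genes, in bases from the RefSeq start site, drawn at the middle base of the match, with right-pointing marks for the gene strand and left-pointing marks for the other. *Mt1* has 3 marks around the start site, *Mt2* has 4 spread over the window, *Mt3* and *Mt4* have 1, *Slc30a1* has 2 and *Mtf1* has 0.

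*Mt1*, *Mt2* and *Mt3* were higher in all 4 *Mtmr2* KO libraries than in any WT control library, and in the niacin group they lay below all 4 *Mtmr2* KO libraries. *Slc30a1* and *Mtf1* did not follow this pattern. Levels below are CPM scaled with the TMM library factors of edgeR.

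*Mt1*, a main zinc buffer of most tissues, was at 209, 330, 211 and 213 CPM in WT control replicates 4497 to 4500. In the *Mtmr2* KO it was at 675 CPM in replicate 4501, 1891 in 4502, 1385 in the library labelled *Mtmr2* KO replicate 4503 and 345 in 4504. In the niacin group it was at 163, 203, 120 and 221 CPM in replicates 4505 to 4508. The lowest *Mtmr2* KO library lay just above the highest WT library, and the niacin group overlapped WT control. Mean levels were 240 ± 59.4 CPM (SD, n = 4) in WT control, 1074 ± 696 CPM (SD, n = 4) in *Mtmr2* KO and 177 ± 44.6 CPM (SD, n = 4) in *Mtmr2* KO niacin.

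*Mt2*, whose product binds metals like that of *Mt1*, was at 127, 237, 131 and 130 CPM in WT control replicates 4497 to 4500. In *Mtmr2* KO it was at 452, 744, 1788 and 248 CPM in replicates 4501 to 4504, and in the niacin group at 96.1, 166, 55.8 and 168 CPM in replicates 4505 to 4508. All 4 *Mtmr2* KO libraries were again the highest of the 12, but the top library was that labelled 4503 and not 4502 as for *Mt1*. Replicate 4498 was the highest WT library for both genes. Mean levels were 156 ± 53.6 CPM (SD, n = 4) in WT control, 808 ± 685 CPM (SD, n = 4) in *Mtmr2* KO and 122 ± 55.3 CPM (SD, n = 4) in *Mtmr2* KO niacin.

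*Mt3*, known as a growth inhibitory factor of neurons, was at 335, 380, 359 and 377 CPM in WT control replicates 4497 to 4500. In *Mtmr2* KO it was at 544, 992, 1082 and 525 CPM in replicates 4501 to 4504, and in the niacin group at 289, 327, 270 and 232 CPM in replicates 4505 to 4508. The 3 groups did not overlap for *Mt3*, with *Mtmr2* KO highest and the niacin group lowest. Mean levels were 363 ± 20.7 CPM (SD, n = 4) in WT control, 786 ± 293 CPM (SD, n = 4) in *Mtmr2* KO and 280 ± 39.5 CPM (SD, n = 4) in *Mtmr2* KO niacin.

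*Slc30a1*, the plasma membrane zinc exporter, was at 41.5, 38.8, 42.7 and 38.6 CPM in WT control replicates 4497 to 4500. In *Mtmr2* KO it was at 31.2, 17.4, 50.3 and 39.1 CPM in replicates 4501 to 4504, and in the niacin group at 34.0, 33.6, 25.7 and 24.2 CPM in replicates 4505 to 4508. Replicate 4502, the highest library for *Mt1*, was the lowest of the 12 for *Slc30a1*, and the library labelled 4503 was the highest. The *Mtmr2* KO overlapped both other groups, while all niacin libraries were below all WT libraries.

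*Mtf1*, the zinc sensor, was at 25.6, 22.8, 25.0 and 22.6 CPM in WT control replicates 4497 to 4500 and at 27.4, 17.8, 18.8 and 25.5 CPM in *Mtmr2* KO replicates 4501 to 4504. In the niacin group it was at 23.1, 21.9, 20.7 and 21.1 CPM in replicates 4505 to 4508. The 3 groups overlapped. The 2 *Mtmr2* KO libraries with the most metallothionein RNA had the lowest *Mtf1* of the 12.

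**Figure D2:**
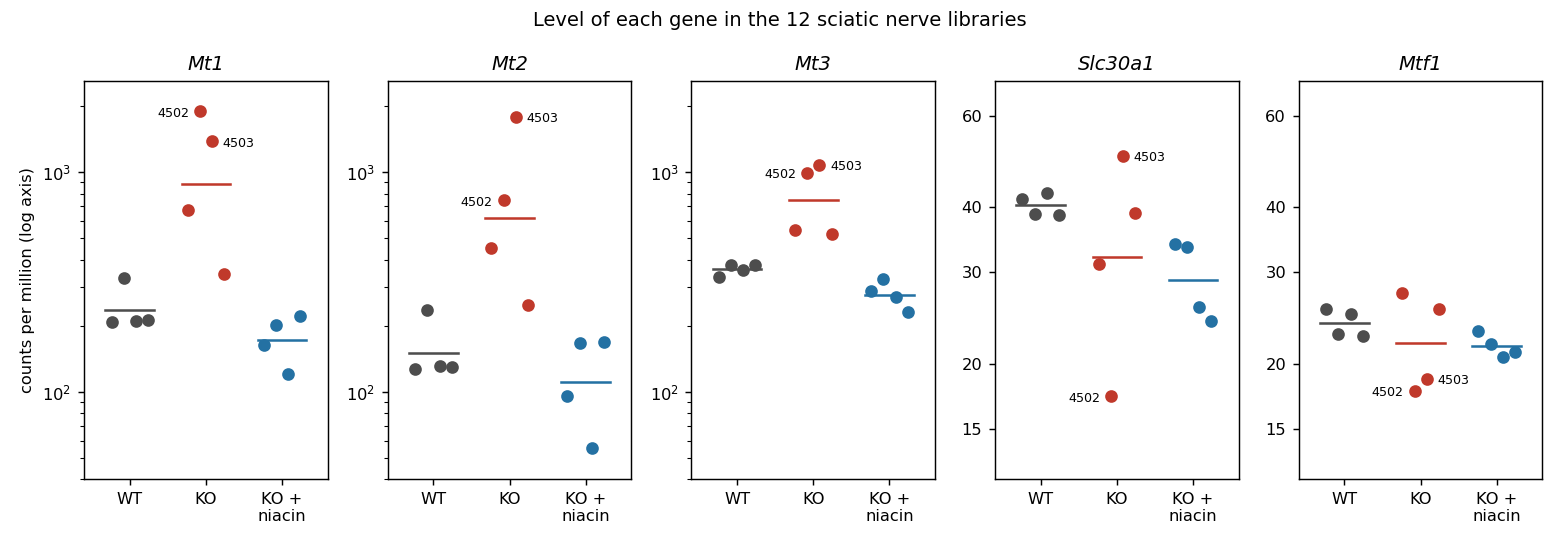
Level of each gene in CPM on a log axis, 1 point per library and 1 panel per gene, for WT control (WT), *Mtmr2* KO (KO) and *Mtmr2* KO niacin (KO + niacin). Horizontal lines are geometric means, and replicates 4502 and 4503 are marked. For *Mt1*, *Mt2* and *Mt3* all 4 KO points lie above the points of the other groups, and for *Slc30a1* and *Mtf1* they do not.

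Together *Mt1*, *Mt2* and *Mt3* took 0.0651% to 0.0987% of all counts in WT control, 0.112% to 0.400% in *Mtmr2* KO and 0.0461% to 0.0700% in the niacin group. By mean CPM *Mt1* ranked 616th of the 17257 genes for WT control, 71st for *Mtmr2* KO and 930th for the niacin group. Between genes, levels were compared per kilobase of the principal transcript. In WT control *Mt3* was highest at 677 ± 38.5 CPM per kb (SD, n = 4), *Mt1* followed at 438 ± 108 and *Mt2* at 305 ± 105, while *Slc30a1* at 7.71 ± 0.385 and *Mtf1* at 3.14 ± 0.196 were far lower. The *Mt3* range, from 625 CPM per kb, did not reach that of *Mt1*, up to 600 CPM per kb, whereas the ranges of *Mt1* and *Mt2* overlapped. In *Mtmr2* KO the order of the means was *Mt1* at 1956 ± 1268 CPM per kb, *Mt2* at 1581 ± 1339 and *Mt3* at 1466 ± 546, with overlapping ranges throughout, and in the niacin group it was again *Mt3* at 521 ± 73.6, *Mt1* at 322 ± 81.2 and *Mt2* at 238 ± 108. The order of *Mt1* and *Mt2* depends on the length used, because the annotation of *Mt1* also includes a longer transcript that keeps an intron. Per kilobase of merged exons, the mean ratio of *Mt2* to *Mt1* in WT control was 1.36, against 0.687 with principal transcripts. The order of *Mt1* and *Mt3* in *Mtmr2* KO depends on it too, with a mean ratio of *Mt3* to *Mt1* of 0.930 per kilobase of principal transcript, 1.06 with merged exons and 1.84 with the longest transcripts.

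Within a library the ratios of the 3 genes do not depend on scaling or depth. *Mt2* gave 0.609 to 0.718 counts per *Mt1* count in WT control, a narrow range. In *Mtmr2* KO the ratio was 0.670 in replicate 4501, 0.393 in 4502, 1.29 in the library labelled 4503 and 0.720 in 4504, so replicates 4501 and 4504 were near WT control and the other libraries were on either side of it. In the niacin group it was between 0.464 and 0.821. *Mt3* gave 1.15 to 1.77 counts per *Mt1* count in WT control and 1.05 to 2.25 in the niacin group. In *Mtmr2* KO this ratio was 0.805, 0.525 and 0.781 in replicates 4501 to 4503, below every other library, and 1.52 in replicate 4504, within the WT range. The sequences of *Mt1* and *Mt2* are similar, and reads that match both may have been dropped or split by the counting program, which the sources used here do not name. An annotated antisense gene, *Gm45774*, shares 432 of the 588 exon bases of *Mt2*, and since the handling of strand is not given either, *Mt2* reads cannot be told apart from antisense reads there.

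**Figure D3:**
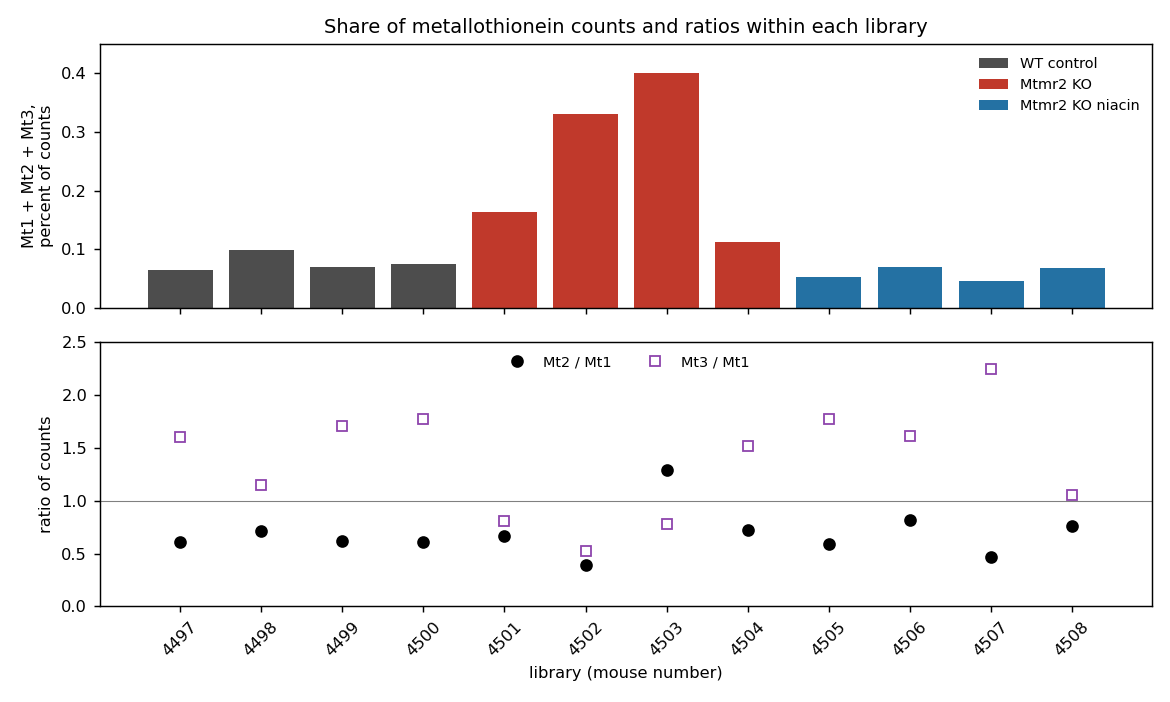
Upper panel, percent of all counts taken by *Mt1*, *Mt2* and *Mt3* together in each library, as bars from 0. Lower panel, counts of *Mt2* (filled circles) and *Mt3* (open squares) per count of *Mt1* in the same libraries. The 4 *Mtmr2* KO bars are the tallest, from 0.112% to 0.400%, and the *Mt2* to *Mt1* ratio exceeds 1 only in the library labelled 4503.

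The first comparison asked how nerves of *Mtmr2* KO mice differ from WT nerves. This contrast chose the genes, so its values describe them only. The log2 fold change of *Mtmr2* KO over WT control was 2.16 (SE 0.42) for *Mt1*, 2.37 (SE 0.53) for *Mt2* and 1.12 (SE 0.23) for *Mt3*, or 4.47-fold, 5.18-fold and 2.17-fold by mean CPM. It was -0.23 (SE 0.24) for *Slc30a1* and -0.10 (SE 0.14) for *Mtf1*. The 2 groups did not overlap, with *Mtmr2* KO higher, for 3 of the 5 genes, against 3.85% of all genes tested. By size of the log2 fold change *Mt2* was 28th, *Mt1* 47th and *Mt3* 455th from the top of the 17257 genes. The median over all genes was 0.03.

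Replicates 4502 and 4503 held much of this size, and the direction was the same without them. Without replicate 4502 the log2 fold changes of *Mt1*, *Mt2* and *Mt3* were 1.73, 2.40 and 0.98, and without the library labelled 4503 they were 2.01, 1.62 and 0.92. With both left out, a choice made after the values were seen, they were 1.09, 1.17 and 0.57. The SD of the log2 level within *Mtmr2* KO was 1.10 for *Mt1* and 1.21 for *Mt2*, larger than in 97.3% and 98.3% of the genes tested, and 0.55 for *Mt3*, larger than in 72.7%. In WT control the SD was 0.32 for *Mt1*, 0.44 for *Mt2* and 0.08 for *Mt3*, with a median of 0.16 over all genes. That median was larger for the mutant groups, at 0.40 without niacin and 0.22 with it. Replicate 4502 also had the 6.997% mitochondrial counts given above and the highest sum of 6 sensory neuron markers, led by *Prph*, 140 CPM against 23.1 to 48.3 CPM in the other libraries, and of 8 adipocyte markers, led by *Car3*, 7580 CPM against 1080 to 2954 CPM in the rest of its group, 3999 to 5178 CPM in WT control and 3673 to 7134 CPM in the niacin group. None of these markers was at 0 in *Mtmr2* KO or WT control. The part of these cells and of RNA quality in the metallothionein levels was not tested, and in whole nerve a change in the number of cells of a type and a change in RNA per cell cannot be told apart.

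The second comparison asked what niacin changed in the mutant nerve. *Mt1*, *Mt2* and *Mt3* fell. The log2 fold change of *Mtmr2* KO niacin over *Mtmr2* KO was -2.60 (SE 0.42) for *Mt1*, -2.73 (SE 0.53) for *Mt2* and -1.49 (SE 0.23) for *Mt3*, which puts *Mtmr2* KO 6.08-fold, 6.64-fold and 2.81-fold above the niacin group by mean CPM. By the quasi-likelihood test of edgeR, adjusted over all genes after Benjamini and Hochberg, the adjusted p was 0.0382 for *Mt1* and *Mt3* and 0.0401 for *Mt2*, and for each the exact two-sided permutation p over libraries was 0.0286, the smallest that 4 against 4 libraries can give. Of the 5 genes 3 were called lower, against 0.73% of all genes tested, and the same 3 did not overlap between groups, against 3.4%. Because the choice used the same *Mtmr2* KO libraries, a fall from them was favoured beforehand, and these shares are a description only. *Slc30a1* differed by -0.23 (SE 0.24) with an adjusted p of 0.621, and *Mtf1* by -0.04 (SE 0.14) with an adjusted p of 0.886.

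Markers of other cell types moved in the same comparison. EdgeR called 6 of the 8 skeletal muscle markers higher in the niacin group (median log2 fold change 5.71) and 1 of the 8 adipocyte markers, against 0.695% of all genes. The adipocyte marker was *Lep*, the leptin gene, at 1.84 (SE 0.29, edgeR adjusted p 0.0382), and all 8 were positive (median 0.83). The muscle sums were 3045 and 3119 CPM in niacin replicates 4506 and 4507 but 58.8 and 98.9 CPM in the rest of that group. They were 10.5 to 51.2 CPM in *Mtmr2* KO. DESeq2 on all libraries called 8 muscle and 2 adipocyte markers, and limma-voom called 1 and 7. *Lep* and *Plin1*, a lipid droplet coat gene, had been called lower in *Mtmr2* KO over WT control, by -2.03 (SE 0.29) and -1.84 (SE 0.32), with edgeR adjusted p of 0.0364 and 0.0448, against 0.22% of all genes. EdgeR called 0 of the 8 Schwann cell markers in niacin over *Mtmr2* KO, where all 8 were negative (median -0.37), 3 had an unadjusted p under 0.05, and DESeq2 on all libraries called 2 and limma-voom 3. Among all genes 20.1% had an unadjusted p under 0.05 there, DESeq2 called 1078 of 33882 and limma-voom 2007 of 17257. The part of these cells in the metallothionein levels was not tested.

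These tests share the 4 *Mtmr2* KO libraries with the contrast that chose the genes, so they are not independent of the choice. The calls were close to the threshold of 0.05. With both groups fitted without the WT libraries, the log2 fold changes were -2.59 for *Mt1*, -2.72 for *Mt2* and -1.48 for *Mt3* and the adjusted p was 0.174 for each. In that fit edgeR called 0 of all genes, with 2249 at an unadjusted p under 0.05, and DESeq2 on the same libraries called 444. Without the library labelled 4503 the log2 fold changes and adjusted p were -2.45 and 0.0686 for *Mt1*, -1.98 and 0.080 for *Mt2* and -1.30 and 0.0486 for *Mt3*. Without replicate 4502 they were -2.20 and 0.00523 for *Mt1*, -2.79 and 0.00783 for *Mt2* and -1.37 and 0.0048 for *Mt3*, and with both libraries left out -1.53 and 0.012, -1.53 and 0.0268, and -0.95 and 0.00736. Of all genes edgeR called 13 of 17430 without 4503, 4180 of 17716 without 4502 and 2223 of 17773 without both. The calls of *Mt1*, *Mt2* and *Mt3* were also lost when any 1 of the 4 WT libraries or niacin replicate 4506 or 4507 was left out, with adjusted p up to 0.153, and that of *Mt2* also without *Mtmr2* KO replicate 4501 or niacin replicate 4505 or 4508. Nearly all other calls were lost in the first of these fits too. EdgeR called 2 of 17537 genes without WT replicate 4498 and 0 without 4497, 4499, 4500, 4506 or 4507. Without 4501, 4505 and 4508 it called 48, 139 and 77 genes. Over the 12 fits that each left out 1 library the log2 fold change stayed between -2.89 and -2.20 for *Mt1*, between -3.03 and -1.98 for *Mt2* and between -1.64 and -1.30 for *Mt3*.

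The third comparison, niacin-treated mutants against WT control, does not use the *Mtmr2* KO values, although it shares the WT libraries with the contrast behind the choice and the spread of the fit still includes the *Mtmr2* KO. The log2 fold change was -0.44 (SE 0.40) for *Mt1*, -0.36 (SE 0.50) for *Mt2*, -0.38 (SE 0.23) for *Mt3*, -0.46 (SE 0.24) for *Slc30a1* and -0.15 (SE 0.14) for *Mtf1*. The edgeR adjusted p was 0.492 for *Mt1*, 0.671 for *Mt2*, 0.298 for *Mt3*, 0.244 for *Slc30a1* and 0.525 for *Mtf1*, and 0% of all genes were called, with 4254 at an unadjusted p under 0.05. For 2 of the 5 genes, *Mt3* and *Slc30a1*, all 4 niacin libraries lay below all 4 WT libraries, against 16.6% of all genes tested, and the exact two-sided permutation p was 0.0286 for each. These genes were called in some of the other fits, which called a large share of all genes. EdgeR with only these groups called 5586 of 16501 genes, DESeq2 with only these groups 5791 of 32179 and limma-voom with sample weights 7311 of 17257. For *Mt3* the adjusted p was 0.0237 by edgeR with only these groups, 0.00598 by DESeq2 with only these groups and 0.0171 by limma-voom with sample weights, and for *Slc30a1* it was 0.0108, 0.00385 and 0.00231. *Mt1* was at 0.0418 and 0.0421 in the latter pair of fits, with log2 fold changes of -0.46 and -0.62, and *Mt2* was not called in any alternative. Skeletal muscle markers were high in niacin replicates 4506 and 4507, and their part was not tested.

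**Figure D4:**
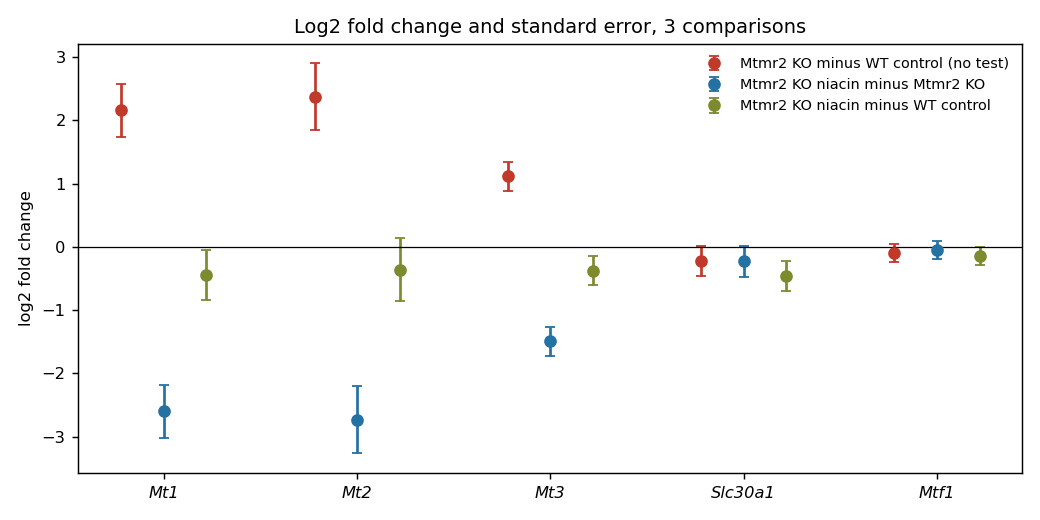
Log2 fold change (points) and its standard error (bars) of the 5 genes in the 3 comparisons, from the edgeR fit of 12 libraries. *Mt1*, *Mt2* and *Mt3* are between 1.12 and 2.37 in *Mtmr2* KO over WT control and between -2.73 and -1.49 in *Mtmr2* KO niacin over *Mtmr2* KO, and *Slc30a1* and *Mtf1* are between -0.46 and -0.04 in all 3.

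Outside the cluster the chromosome was measured by the 3 nearest tested genes before it and the 4 nearest after it, and no other tested gene lay inside it. Before the cluster lay *Bbs2*, *Ogfod1* and *Nudt21*, and after it *Nup93*, *Herpud1*, *9330175E14Rik* and *Nlrc5*. EdgeR called 0 of the 7 in each of the 3 comparisons. Of all genes it called 0.267% in *Mtmr2* KO over WT control, 1.43% in niacin over *Mtmr2* KO and 0% in niacin over WT control. In the same order 1, 0 and 3 of the 7 had an unadjusted p under 0.05, against 17.2%, 20.1% and 24.7% of all genes. DESeq2 on all libraries also called 0 in each. DESeq2 on only the 2 groups called 2 in niacin over WT control, where it called 5791 of 32179 genes, and 0 in the others. Limma-voom called 3 in niacin over WT control, where it called 7311 of all 17257 genes, and 0 in the others. The nearest before the cluster, *Bbs2*, a gene of the ciliary BBSome, differed by 0.37 (SE 0.16, adjusted p 0.265) in *Mtmr2* KO over WT control and by -0.25 (SE 0.16) in the niacin group over *Mtmr2* KO. *Nup93*, a nuclear pore gene and the nearest after it at 34237 bases, differed by 0.01 (SE 0.13) and 0.12 (SE 0.13). *Nudt21* was at 0.44 and -0.24 in these comparisons, *Ogfod1* at -0.19 and -0.19 and *Herpud1* at 0.18 and 0.09, while *9330175E14Rik*, with a mean below 1 CPM, was at 0.73 and 0.29 and *Nlrc5* at -0.27 and 0.54.

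**Figure D5:**
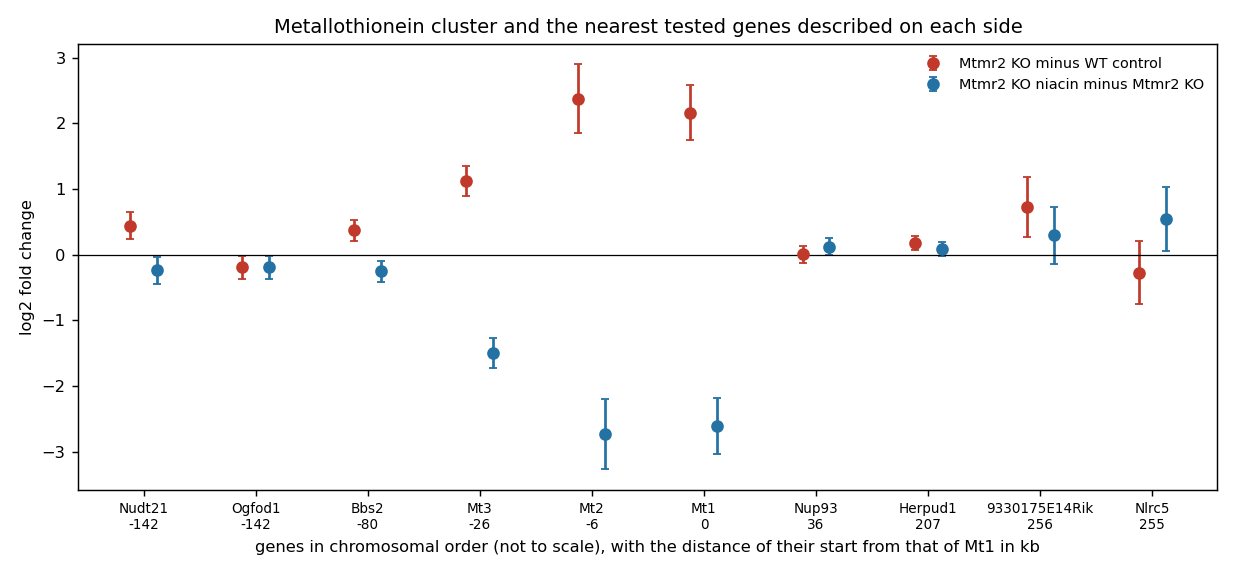
Log2 fold change (points) and standard error (bars) of *Mt3*, *Mt2*, *Mt1*, the 3 nearest tested genes before them and the 4 nearest after, in chromosomal order with the distance of each start from that of *Mt1* in kb. *Mt1*, *Mt2* and *Mt3* stand at 1.12 or more for *Mtmr2* KO over WT control and at -1.49 or below for niacin over *Mtmr2* KO, and the 7 neighbours lie between -0.27 and 0.73 in the first and between -0.25 and 0.54 in the second.

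EdgeR called no other gene of the zinc, copper, MTF1 target and Nrf2 lists, while DESeq2 and limma-voom called some. Counts of 0 in lists this short are near the shares of all genes called, given next. The 8 lists held 67 genes besides the 5 described, of which 63 were tested. In *Mtmr2* KO over WT control edgeR called 1 of the 63, against 0.267% of all genes, in niacin over *Mtmr2* KO it called 3 of the 63, against 1.43%, and in niacin over WT control 0 of the 63, where 13 had an unadjusted p under 0.05, DESeq2 on all libraries called 2 and limma-voom 24. Of all genes 17.2%, 20.1% and 24.7% had an unadjusted p under 0.05 in these 3 comparisons, which is the background for the unadjusted counts given here. In the same order DESeq2 on all libraries called 683, 1078 and 1070 of 33882 genes with at least 1 count. Limma-voom called 108, 2007 and 7311 of 17257 genes. Those numbers are the background for the DESeq2 and limma-voom counts of these lists. All edgeR calls were in the list of Stat3 and acute-phase genes.

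Of the zinc exporters besides *Slc30a1* 7 of 9 were tested and edgeR called 0 in each comparison, with a median log2 fold change of 0.09 in *Mtmr2* KO over WT control and 0.08 in niacin over *Mtmr2* KO. The most abundant was *Slc30a9*, at a mean of 123 CPM for WT control, 142 for *Mtmr2* KO and 152 for the niacin group, followed by *Slc30a5*, which loads zinc into the secretory pathway, at 48.6, 47.9 and 50.8 CPM. All 14 zinc importers were tested and edgeR again called 0 in each comparison, with medians of 0.16 in *Mtmr2* KO over WT control and -0.30 in niacin over *Mtmr2* KO. *Slc39a1* was at 135, 126 and 126 CPM and *Slc39a10*, which MTF1 is known to repress, at 71.1, 98.6 and 77.5 CPM. In *Mtmr2* KO over WT control 1 of the 7 exporters and 2 of the 14 importers had an unadjusted p under 0.05, and DESeq2 on all libraries called 0 in both lists. In niacin over *Mtmr2* KO these counts were 0 exporters and 5 importers, with 0 and 1 called by DESeq2 and 0 and 3 by limma-voom. An unadjusted p under 0.05 was found for 3 exporters and 2 importers in niacin over WT control, and DESeq2 called 0 and 1 and limma-voom 4 and 4.

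Of 5 other described MTF1 targets edgeR called 0 in each comparison. The more abundant were *Ndrg1*, a myelin maintenance gene, at 1822, 1795 and 1366 CPM in WT control, *Mtmr2* KO and *Mtmr2* KO niacin, and *Csrp1* at 580, 771 and 516 CPM. Of 11 copper handling genes 10 were tested and edgeR called 0, and the copper and zinc superoxide dismutase *Sod1* was at 168, 214 and 221 CPM and the copper importer *Slc31a1* at 45.4, 44.2 and 47.9 CPM. Of 9 Nrf2 antioxidant targets edgeR called 0, with the peroxiredoxin *Prdx1* at 292, 311 and 398 CPM and the heme oxygenase *Hmox1* at 72.7, 73.8 and 74.6 CPM. In *Mtmr2* KO over WT control 1 MTF1 target, 0 copper genes and 1 Nrf2 target had an unadjusted p under 0.05, and DESeq2 on all libraries called 0 in the 3 lists. In niacin over *Mtmr2* KO the counts were 2, 0 and 1, DESeq2 called 0 and limma-voom called 0, 1 and 1. In niacin over WT control they were 0, 2 and 3, with 0, 0 and 1 called by DESeq2 and 2, 3 and 6 by limma-voom.

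For the glucocorticoid-induced genes, a list for another known inducer of *Mt1* and *Mt2*, the median and some of the signs turned on the library labelled 4503. With it, all had positive log2 fold changes in *Mtmr2* KO over WT control (11 of 11, median 1.02, where 9327 of 17257 genes were positive) and all had negative ones in niacin over *Mtmr2* KO (11 of 11, median -0.82, where 9333 were negative), comparisons that share the *Mtmr2* KO libraries. Without it, 8 of 11 were positive in the first (median 0.17), with *Zbtb16*, *Klf9* and *Dusp1* negative, and 6 of 11 were negative in the second (median -0.09), with *Per1*, *Sgk1*, *Ddit4*, *Errfi1* and *Dusp1* positive. EdgeR called 0 of the 11 in both comparisons. At an unadjusted p under 0.05 there were 5 and 6, DESeq2 on all libraries called 2 and 3, and limma-voom 0 and 1. EdgeR also called 0 in niacin over WT control, with 1 at an unadjusted p under 0.05, 0 called by DESeq2 and 2 by limma-voom. The most abundant were *Tsc22d3*, also known as GILZ, at 219 CPM for WT control, 652 for *Mtmr2* KO and 369 for the niacin group, and the cell cycle inhibitor *Cdkn1a* at 386, 550 and 269 CPM. For 2 of the 11, *Tsc22d3* and *Pdk4*, all 4 *Mtmr2* KO libraries lay above all WT libraries, against 3.85% of all genes tested. Without the library labelled 4503 the log2 fold change of *Tsc22d3* in *Mtmr2* KO over WT control was 1.10. *Tsc22d3* was at 430, 579, 1200 and 398 CPM in *Mtmr2* KO replicates 4501 to 4504, with 212 to 224 CPM in WT control. *Fkbp5*, a co-chaperone of the glucocorticoid receptor that was picked after its values were seen, was at 122, 71.1, 379 and 56.4 CPM in the same libraries and at 38.3 to 81.1 CPM in WT control. The library labelled 4503 was thus the highest for both and also for *Mt2* and *Mt3*. Replicate 4502, the highest for *Mt1*, was within the WT range for *Fkbp5*, as was replicate 4504, but the rest of the list was mixed in 4502. Replicate 4502 lay above the WT range for *Tsc22d3*, *Sgk1*, *Errfi1* and *Pdk4* and within it for *Zbtb16* and *Dusp1*. For *Per1*, *Klf9*, *Ddit4* and *Cdkn1a* it lay below that range. What part glucocorticoids had in the metallothionein levels was not tested.

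Among the 9 Stat3 and acute-phase genes *Lcn2*, an iron-sequestering lipocalin, rose in *Mtmr2* KO over WT control by 3.07 on the log2 scale (SE 0.57, edgeR adjusted p 0.0457), 1 of 9 called higher against 0.0464% of all genes. This call was lost in 9 of 12 fits that left out 1 library (adjusted p 0.00627 to 0.156), among them those without any 1 of the WT libraries, without replicate 4502 and without the library labelled 4503, and in 4 of 9 other alternatives. Over those 12 fits edgeR called 0 to 457 of all genes in this comparison. *Lcn2* was at 2.15 to 6.25 CPM in WT control, at 31.8, 44.2, 51.0 and 5.29 CPM in *Mtmr2* KO replicates 4501 to 4504 and at 1.47 to 4.76 CPM in the niacin group. Replicate 4504, the lowest of its group for *Mt1*, *Mt2* and *Mt3*, was within the WT range for *Lcn2*. *Lcn2*, the acute-phase gene *Saa3* and the cytokine signalling inhibitor *Socs3* were called lower in the niacin group than in *Mtmr2* KO, by -3.54 (SE 0.59), -6.23 (SE 1.38) and -0.80 (SE 0.18), with edgeR adjusted p of 0.0382, 0.0458 and 0.0486. With 1 library left out these calls were lost in 7, 10 and 11 of 12 fits, with adjusted p up to 0.153, 0.166 and 0.166. Over those fits edgeR called 0 to 4180 of all genes in niacin over *Mtmr2* KO. *Saa3* was at 1.29, 38.8, 11.8 and 0.0481 CPM in *Mtmr2* KO and at up to 0.429 CPM in the other groups, so its size rests on replicates 4502 and 4503. The most abundant genes of this list were *Stat3*, at 109, 107 and 83.7 CPM in WT control, *Mtmr2* KO and *Mtmr2* KO niacin, and *Cebpd* at 36.8, 61.0 and 45.9 CPM, and neither was called. The 6 neutrophil markers, led by *Csf3r*, summed to 2.19 to 3.56 CPM in WT control, 22.5, 16.8, 5.74 and 3.42 CPM in *Mtmr2* KO replicates 4501 to 4504 and 2.25 to 13.4 CPM in the niacin group, with *Ly6g* and *Cxcr2* at 0 in some library of each group, and the part of these cells was not tested.

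The genes whose levels were most like those of *Mt1* over the 12 libraries, by Pearson r of the log2 level, were *Rab37* (0.985), *Evc2* (0.965), *Scrg1* (0.963), *Rhot1* (0.960) and *Gabrr2* (0.955). *Mt2* came 6th (0.952) and *Mt3* 10th (0.945) of 17256 genes. These values are descriptions over libraries that share the group differences. With group means subtracted, the most alike were *Nup210l* (0.974), *Apoc3* (0.952), *Rab37* (0.951), *Fam13b* (0.942) and *Aldh6a1* (0.942), and *Mt2* came 120th (0.842) and *Mt3* 276th (0.779). *Rab37*, a small GTPase gene and the only one in both lists, was at 5.12, 12.1, 15.4 and 2.501 CPM in *Mtmr2* KO replicates 4501 to 4504, at 1.53 to 2.98 CPM in WT control and at 0.914 to 1.67 CPM in the niacin group. *Evc2* and *Rhot1*, a mitochondrial transport gene, are more abundant, with means of 145 and 159 CPM in WT control and 252 and 258 CPM in *Mtmr2* KO. In each of these genes replicates 4502 and 4503 were the highest libraries, as for *Mt1*, which follows largely from their choice by likeness to *Mt1*.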

How the data were processed

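Sciatic nerve RNA of 12 mice was sequenced, and groups and mouse numbers were taken from the sample labels. Genewiz prepared polyA-selected libraries, and after mapping with STAR to GRCm38 the authors deposited a table of raw, whole-number read counts for Ensembl genes (Illumina CASAVA 1.9 and DESeq2 are also named in the submitters' processing notes). The counter, gene annotation and strand setting were not given in the sources. Also deposited by the authors were 3 tables of their own DESeq2 comparisons, of which only the pairing of identifiers and symbols was used. Totals were 20763951 to 33191106 counts per library, and no pair of libraries shared more than 1.84% equal counts.

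EdgeR 4.0.16 under R 4.3.3 was used. The filter was filterByExpr with the 3 groups, scaling was by TMM, and genes were fitted in 1 quasi-likelihood model of 12 libraries, two-sided, with Benjamini-Hochberg adjustment over 17257 genes and calls at an adjusted p under 0.05. Standard errors are the log2 fold change over the root of F. Log2 levels used a prior count of 2, and exact permutation tests used all 70 draws of 4 of 8 libraries. The fit was tested on simulated data. Alternatives used DESeq2 1.42.0, limma 3.58.1 (voom with sample weights), other filters, size factors and samples. The study names DESeq2, which was run on all libraries and on pairs of groups. Coordinates are from GENCODE M21, whose principal transcripts gave the lengths, and promoters from RefSeq.

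The 5 genes, the 8 pathway lists and the 8 marker lists were chosen with earlier results of these data known. Named genes are the 5, *Mt4* and *Mtmr2*, called genes and the 2 most abundant of each pathway list, the nearest tested genes on each side of the cluster, the 5 genes most like *Mt1* by each of 2 measures, and the most abundant marker of each list, of which some items are not reported here. P-values measure the spread between mice of these groups only.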

Additional observations from a re-analysis of the deposited data

Results flagged for a closer look

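Of 27 sets of 4 libraries examined (the levels of the 5 genes and of *Mtmr2*, the metallothionein share of counts, the ratio of *Mt2* to *Mt1* and the mitochondrial share, in each of 3 groups), 4 held a library whose gap to its nearest neighbour exceeded, as a share of the range of its group, Dixon's critical value for 4 samples. Chance alone gives about 1 in 20 such sets. The highest WT library for *Mt1* was replicate 4498, at 329.5 CPM against 209 to 213 CPM in the other 3 libraries of that group, with a gap of 0.97 of the range. The same mouse was at 236.5 CPM for *Mt2*, against 127 to 131 CPM, with a gap of 0.968, and at 0.7176 *Mt2* counts per *Mt1* count, with a gap of 0.893. These 3 values come from 1 library and are not independent of each other. Among the glucocorticoid-induced genes, replicate 4498 was the highest WT library for *Fkbp5* (81.1 CPM), *Zbtb16* (53.7 CPM), *Ddit4* (107.7 CPM) and *Dusp1* (37.1 CPM). It was the lowest for *Sgk1* (174.3 CPM), *Cdkn1a* (365.6 CPM), *Errfi1* (78.0 CPM) and *Pdk4* (39.8 CPM). For *Tsc22d3*, *Per1* and *Klf9* it was neither. *Mtmr2* KO replicate 4502 had 6.997% of its counts on mitochondrial genes, with a gap of 0.923 of the range of its group, and the highest *Mt1* of the 12 libraries. Without WT replicate 4498 the log2 fold change of niacin over WT control was -0.26 for *Mt1* and -0.09 for *Mt2*, against -0.44 and -0.36 with it. What set these libraries apart was not tested.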

How the results depend on the processing

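The direction of *Mt1*, *Mt2* and *Mt3* in *Mtmr2* KO over WT control and in niacin over *Mtmr2* KO was the same in each of the alternatives and with each library left out. Over the 9 alternatives besides these single libraries, *Mt1* ranged from 1.09 to 2.18 in *Mtmr2* KO over WT control and from -2.61 to -1.53 in niacin over *Mtmr2* KO, where it was called in 8 (adjusted p 3.22e-08 to 0.174). *Mt2* ranged from 1.17 to 2.40 and from -2.76 to -1.53 (called in 7, adjusted p 0.000639 to 0.174), and *Mt3* from 0.57 to 1.14 and from -1.50 to -0.95 (called in 8, adjusted p 2.68e-07 to 0.174). *Mtf1* ranged from -0.16 to 0.15 in *Mtmr2* KO over WT control. The cause of the changed calls was not tested. Depth does not limit these genes, which had at least 387 counts in every library, and the 4 mice per group do limit the permutation p to 0.0286 or above.

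In niacin over *Mtmr2* KO the calls were lost by edgeR on only the 2 groups (-2.59 for *Mt1*, -2.72 for *Mt2*, -1.48 for *Mt3*) and for *Mt2* with the Xist covariate (-2.76, adjusted p 0.0515). With 1 library left out *Mt1* ranged from -2.89 to -2.20, *Mt2* from -3.03 to -1.98 and *Mt3* from -1.64 to -1.30, with adjusted p of 0.00356 to 0.153, 0.00783 to 0.153 and 0.0048 to 0.153. In niacin over WT control calls appeared by DESeq2 on only the 2 groups (-0.46 for *Mt1*, -0.39 for *Mt3*, -0.47 for *Slc30a1*), by limma-voom (-0.62, -0.37 and -0.55), by edgeR on only the 2 groups (-0.37 for *Mt3*, -0.45 for *Slc30a1*) and without 4502 and 4503 together (-0.38 and -0.46, adjusted p 0.0209 and 0.0147). *Slc30a1* ranged from -0.55 to -0.38 with 1 library left out and was called at an adjusted p of 0.0458 without *Mtmr2* KO replicate 4502. In *Mtmr2* KO over WT control the count of pathway list genes called was 1, against 5 by DESeq2 on all libraries, 4 by DESeq2 on only the 2 groups, 0 by limma-voom, 2 with DESeq2 size factors, 0 by edgeR on only the 2 groups, 4 without a filter, 0 with the Xist covariate and 0 without 4502 and 4503 together, and 0 to 5 with 1 library left out. In niacin over *Mtmr2* KO the count of pathway list genes called was 3, against 7 by DESeq2 on all libraries, 8 by limma-voom, 0 by edgeR on only the 2 groups, 6 without a filter, 1 with at least 10 counts in every library, 1 with the Xist covariate and 9 without 4502 and 4503 together, and 0 to 19 with 1 library left out. In niacin over WT control the count of pathway list genes called was 0, against 2 by DESeq2 on all libraries, 24 by DESeq2 on only the 2 groups, 24 by limma-voom, 23 by edgeR on only the 2 groups, 1 without a filter and 22 without 4502 and 4503 together, and 0 to 13 with 1 library left out. In *Mtmr2* KO over WT control the count of all genes called was 46, against 683 by DESeq2 on all libraries, 427 by DESeq2 on only the 2 groups, 108 by limma-voom, 0 by edgeR on only the 2 groups, 341 without a filter, 12 with the Xist covariate and 11 without 4502 and 4503 together, and 0 to 457 with 1 library left out. In niacin over *Mtmr2* KO the count of all genes called was 246, against 1078 by DESeq2 on all libraries, 444 by DESeq2 on only the 2 groups, 2007 by limma-voom, 0 by edgeR on only the 2 groups, 573 without a filter, 50 with the Xist covariate and 2223 without 4502 and 4503 together, and 0 to 4180 with 1 library left out. In niacin over WT control the count of all genes called was 0, against 1070 by DESeq2 on all libraries, 5791 by DESeq2 on only the 2 groups, 7311 by limma-voom, 5586 by edgeR on only the 2 groups, 311 without a filter and 5263 without 4502 and 4503 together, and 0 to 3826 with 1 library left out.

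In *Mtmr2* KO over WT control the sign turned for *Nup93* -0.01 by DESeq2 on all libraries, -0.02 by DESeq2 on only the 2 groups and -0.06 without a filter, *Slc39a1* 0.05 without 4502 and 4503 together, *Ndrg1* 0.05 by limma-voom and 0.11 without 4502 and 4503 together, *Sod1* -0.09 without 4502 and 4503 together, *Prdx1* -0.002 by limma-voom and -0.01 without 4502 and 4503 together, *Hmox1* -0.01 by DESeq2 on only the 2 groups and -0.04 without a filter, *Stat3* 0.02 by limma-voom, 0.002 with at least 10 counts in every library and 0.07 without 4502 and 4503 together. In niacin over *Mtmr2* KO the sign turned for *Bbs2* 0.05 without 4502 and 4503 together, *Nudt21* 0.12 without 4502 and 4503 together, *Herpud1* -0.01 without 4502 and 4503 together, *Slc39a1* -0.08 by limma-voom, -0.01 with DESeq2 size factors, -0.01 with at least 10 counts in every library and -0.15 without 4502 and 4503 together, *Hmox1* -0.03 by limma-voom and -0.17 without 4502 and 4503 together. In niacin over WT control the sign turned for *Slc31a1* -0.02 by limma-voom, *Hmox1* -0.01 without a filter. With 1 library left out the log2 fold change in *Mtmr2* KO over WT control ranged on both sides of 0 for *Nup93* -0.10 to 0.08, *Nlrc5* -0.67 to 0.004, *Ndrg1* -0.09 to 0.12, *Sod1* -0.02 to 0.48, *Prdx1* -0.20 to 0.27, *Hmox1* -0.14 to 0.16 and *Stat3* -0.18 to 0.17. With 1 library left out the log2 fold change in niacin over *Mtmr2* KO ranged on both sides of 0 for *Slc30a1* -0.47 to 0.01, *Mtf1* -0.15 to 0.07, *Nudt21* -0.35 to 0.11, *Slc39a1* -0.10 to 0.09, *Sod1* -0.09 to 0.39 and *Hmox1* -0.13 to 0.17. With 1 library left out the log2 fold change in niacin over WT control ranged on both sides of 0 for *Nlrc5* -0.08 to 0.55, *Slc31a1* -0.02 to 0.13, *Hmox1* -0.06 to 0.11 and *Saa3* -1.37 to 0.23. The mean ratio of *Mt2* to *Mt1* per kb was 1.36 for WT control, 1.63 for *Mtmr2* KO and 1.396 for the niacin group with merged exons, within the spread of these with the longest transcript, and 0.687, 0.826 and 0.708 with principal transcripts. Mean levels without TMM factors moved by less than 1 SD. Leaving out 4502 and 4503 together and the use of principal transcripts were chosen after the data were seen. No paired analysis was possible because the mouse numbers of the labels are shared by no 2 groups.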
